A study of Cyanidioschyzon merolae strain 10D with 6 samples.

Results

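The 100 most abundant transcripts from the interior of the nuclear chromosomes of Cyanidioschyzon merolae strain 10D held a smaller share of all RNA counts in the mutant Cme(z)-1, which has lost the function of Polycomb Repressive Complex 2 (PRC2), than in the wild type. Members were the 100 genes with the highest mean level over the 3 wild-type libraries, among 4422 nuclear genes that lie at 20 kb or more from both ends of their chromosome and have under 50% of their length covered by annotated transposable element (TE) copies. The annotation holds 4984 genes in all. Levels are given as CPM, the count of a gene divided by all counts of its library, genes and TE copies together, and multiplied by 1000000. Because the wild-type levels chose the members, those levels are a description, and a gene that happened to be high in the wild-type libraries enters more easily, which makes the fold changes of members lean downwards. The share and the direction of change are therefore also given for genes ranked by the mutant libraries, where the lean is the opposite.

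The alga is a single-celled red alga of acidic hot springs. Poly(A) RNA of the mutant line Cme(z)-1 and of the wild type 10D was sequenced in 3 libraries each, from acid liquid cultures with a pH of 2.5 to 3.0. Cells grew at 42 °C, and the white light, 80 µmol/m2/s, was never switched off. The labels name no other treatment or allele. Cme(z)-1 is 1 line, so any other trait of that line goes with the group, and whether the replicates were grown separately is not stated. The p-values therefore measure the spread between these libraries, which may be technical. Libraries held 8292567 to 10754544 counts in the mutant and 7860491 to 9188335 in the wild type. The E(z) locus, identified here as CMQ156C from what is published on this alga, had 0 counts in each mutant library, which allows up to 0.362 CPM in the shallowest of them, and 1776, 1533 and 1770 counts in the wild-type libraries. In bulk RNA, fewer cells with a transcript and less of it per cell cannot be told apart, and shares of a library say nothing of the total RNA of a cell.

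Within PRC2 the E(z) protein is the enzyme that methylates histone H3, a mark known for keeping silent genes and repeats off. In any RNA library a small number of transcripts takes a large part of the reads, so a gain elsewhere lowers their share and the reverse. In growing photosynthetic cells such transcripts commonly encode proteins of photosynthesis, carbon fixation, translation and protein folding. Neither the gene annotation nor the reference table gives a product for any of the 100 members, so they are named by locus tag and no role is given.

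The members took 17.7%, 17.5% and 15.1% of all counts in mutant replicates 1, 2 and 3, against 19.1%, 20.3% and 19.2% in wild-type replicates 1, 2 and 3. The groups did not overlap, and mutant replicate 3 was the lowest library. The mean share was 16.8% ± 1.41 in the mutant and 19.5% ± 0.656 in the wild type (SD, n = 3 each), a difference of -2.76 percentage points. The 95% exact Clopper-Pearson interval of a single library's share spanned at most 0.0551 points and covers counting error only. It treats reads as independent, and as they carry no molecular identifiers, it may be too narrow even for that error. The spread between replicates, not the depth, thus set the precision. No test is given, since the wild-type shares were used in choosing the genes.

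The lower share was also seen with genes ranked by the mutant libraries, and with the wild-type library used for ranking left out of the comparison. Ranked by the 3 mutant libraries, the top 100 held 17.0% ± 1.45 of counts in the mutant and 19.3% ± 0.812 in the wild type, a difference of -2.26 points. The groups were again apart: the highest mutant library of that ranking stood at 18.0% and the lowest wild-type library at 18.8%. Ranked by a single wild-type library that was then left out, the difference was -2.91, -2.02 or -2.75 points for wild-type replicates 1, 2 and 3, and in each of these 3 choices every mutant library lay below both remaining wild-type libraries. Without mutant replicate 3 the difference of the members' share was -1.94 points, and without both replicate 3 libraries, an alternative chosen after seeing the data, it was -2.12 points.

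**Figure D1:**
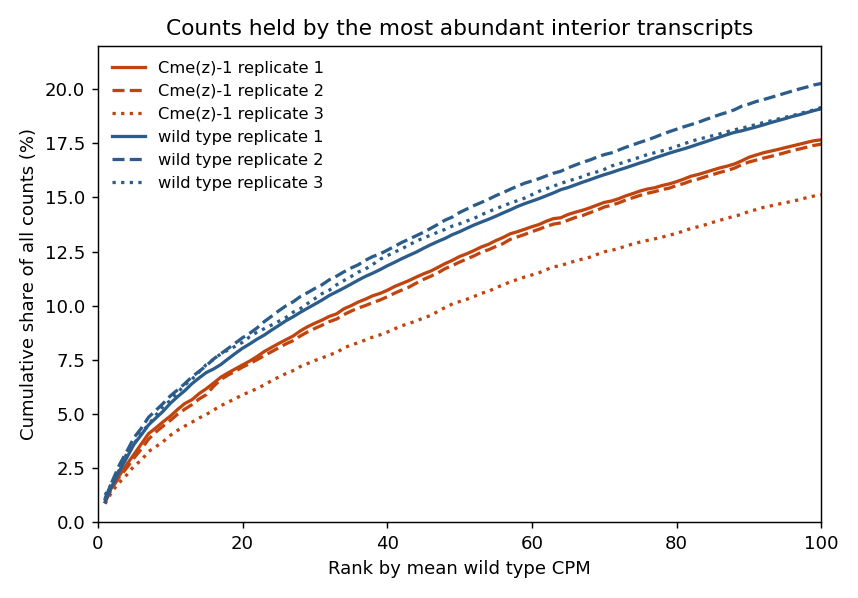
Cumulative share of all counts of a library (%) held by the members, from rank 1 to rank 100 by mean wild-type CPM, with 1 line for each of the 3 Cme(z)-1 and 3 wild-type libraries. At rank 100 the mutant lines end between 15.1% and 17.7% and the wild-type lines between 19.1% and 20.3%, and mutant replicate 3 runs below the other libraries.

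The loss was spread over many members. The share was lower in the mutant for 81 of the 100 and higher for 19. The changes of the lower ones summed to -3.14 points and those of the higher ones to 0.383 points. The 10 largest losses summed to -1.26 points, and 7 of those 10 genes were among the 10 most abundant. Ranks 1 to 10 held 4.53% ± 0.467 of counts in the mutant and 5.64% ± 0.173 in the wild type. Ranks 11 to 25 held 3.14% ± 0.380 and 3.73% ± 0.178, and ranks 26 to 50 held 3.82% ± 0.293 and 4.46% ± 0.112, in the mutant and the wild type in that order. The groups did not overlap in any of these 3 bands. In ranks 51 to 100 they did, with 5.26% ± 0.282 in the mutant and 5.67% ± 0.292 in the wild type (SD, n = 3 each throughout).

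Other classes of rows moved the other way or overlapped. TE copies took 10.5% ± 0.794 of counts in the mutant and 9.22% ± 0.165 in the wild type, and nuclear genes under 20 kb from a chromosome end took 3.81% ± 0.0176 and 3.17% ± 0.0530, in the same order. The gain of these classes goes with the loss of the members in a share of all counts. With only the counts of interior nuclear genes under 50% TE cover as the total, a choice made after seeing the data, the members' share was 20.2% in the mutant and 22.9% in the wild type, a difference of -2.71 points. These are points of a smaller total, so their size cannot be set directly against points of all counts. The next 100 genes of the ranking held 6.56% ± 0.232 in the mutant and 6.68% ± 0.403 in the wild type, with overlapping groups.

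Gene by gene, few members passed the test. All 100 passed the low-count filter, as did 4865 of the annotated genes, and no member rose and 2 fell at an adjusted p under 0.05 (edgeR quasi-likelihood test with Benjamini-Hochberg adjustment over 4865 genes and all tested TE copies). Over all genes tested, 1.29% were called higher and 1.83% lower, so the number of called members was near the background. At an unadjusted p under 0.05, 1 member was higher and 27 were lower, beside 5.51% and 9.68% of all genes. limma voom likewise called 0 higher and 2 lower, beside 1.27% and 1.73%. Most differences were small and in 1 direction: the fold change was above 0 for 19 members and below 0 for 81, where 43.0% and 57.0% of all genes tested were. The median log2 fold change of the members was -0.27, with the middle part of the values from -0.42 to -0.10 (first and last quartile), a median standard error of 0.18 and a range from -1.35 to 0.56. The median over all genes tested was -0.03. Without mutant replicate 3 the members' median was -0.17 and that of all genes -0.04, and the number of members called lower was between 1 and 5 with 1 library left out (4 and 5 when replicate 2 or replicate 3 of the wild type was left out, and 1 in each of the other 4 runs). All 3 mutant libraries lay below all 3 wild-type libraries for 30 members and above them for 4, where the background over all genes was 7.36% below and 13.0% above. DESeq2 called 22 members lower and 1 higher, with log2 fold changes of the lower ones between -1.36 and -0.36, beside 4.34% and 2.36% of all genes. Because the wild-type levels chose the members, all of these counts lean downwards against the background. Among the mutant's own top 100, where the lean is the opposite, 73 fold changes were negative. In that set 2 genes were higher and 20 lower at an unadjusted edgeR p under 0.05, and the libraries were apart for 24 genes below and 5 above.

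**Figure D2:**
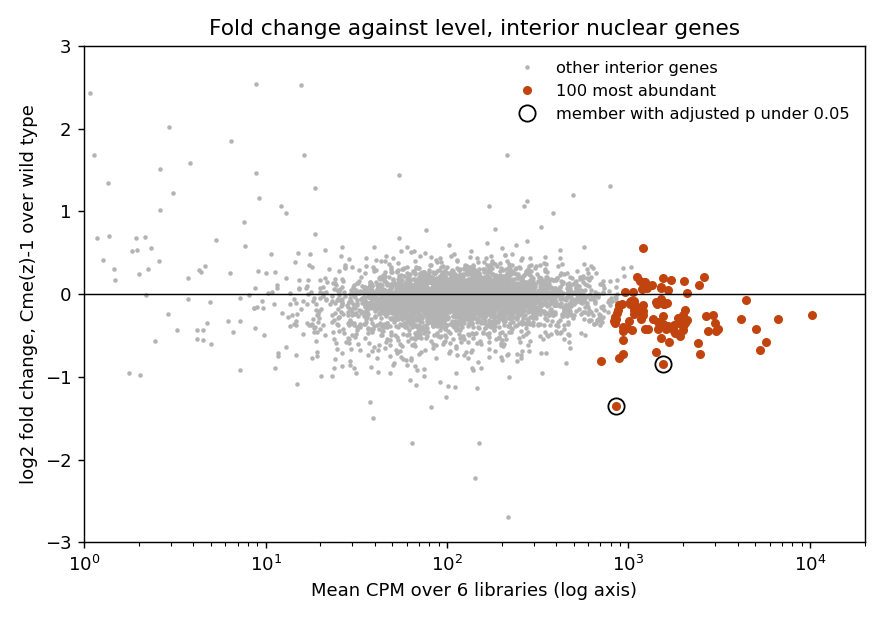
Log2 fold change of Cme(z)-1 over wild type (vertical axis) against mean CPM over 6 libraries (horizontal, log axis) for 4377 of 4381 tested interior nuclear genes; the other 4 lie outside the axes. The 100 members lie mostly below 0 (81 of 100), with values from -1.35 to 0.56, and black rings mark the 2 members that passed the test.

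The downward shift was larger among the most abundant genes. By wild-type rank, the median log2 fold change was -0.39 in ranks 1 to 10, -0.33 in ranks 11 to 25, -0.34 in ranks 26 to 50, -0.18 in ranks 51 to 100 and -0.08 in the next 100. The fold change was negative in 10 of 10, 13 of 15, 21 of 25, 37 of 50 and 68 of 100 genes of these bands. With genes ranked by the mutant libraries the medians were -0.31, -0.31, -0.12, -0.13 and -0.04 in the same bands, with negative values in 9 of 10, 11 of 15, 19 of 25, 34 of 50 and 57 of 100 genes. Medians of the first 3 bands lay close together by wild-type rank, while by mutant rank the first pair of bands lay lowest. In each of the 4 bands beyond rank 200 the median lay between -0.062 and -0.0037. Among the mutant's own top 100, 24 genes had all mutant libraries below all wild-type libraries and 5 had them above, against 30 and 4 among the members. Of all genes tested, 7.36% lay below, 13.0% lay above and 57.0% had a negative fold change. These are descriptions of the genes, which share libraries, and no test was run over them.

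**Figure D3:**
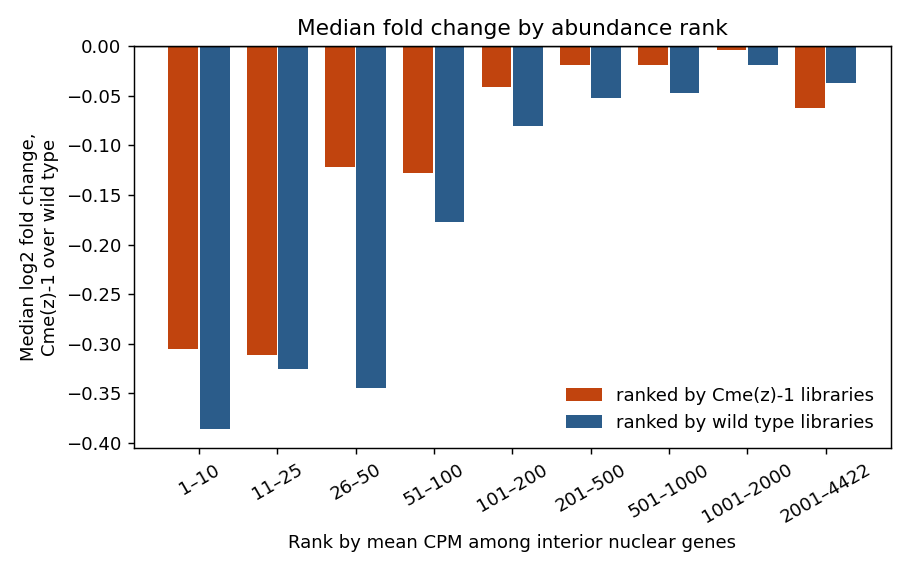
Median log2 fold change of Cme(z)-1 over wild type (vertical axis) in bands of abundance rank among interior nuclear genes (horizontal axis), with genes ranked by mean CPM of the Cme(z)-1 libraries or of the wild-type libraries. The first 10 ranks stand at -0.31 and -0.39, and the 100 ranks after the last member at -0.04 and -0.08.

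CMP166C was the most abundant member. It lies on chromosome 16 (422229 to 423464, plus strand, build ASM9120v1). All members have a single exon without annotated untranslated regions, and 2 of them are annotated as not translated. Coding length here is the length of the annotated exon. The level of CMP166C was 10785, 9442 and 8514 CPM in mutant replicates 1 to 3, against 9434, 10957 and 12550 CPM in the wild type. The groups overlapped, the mean being 9580 ± 1142 CPM in the mutant and 10980 ± 1558 CPM in the wild type, and the difference did not pass (log2 fold change -0.25, SE 0.22, edgeR adjusted p = 0.64). CMT172C (chromosome 20, 440637 to 441843, minus strand) had 5862, 6529 and 5984 CPM in the mutant, against 7650, 8071 and 6008 CPM in the wild type. Mutant replicate 2 lay above wild-type replicate 3, so these groups overlapped as well (-0.30, SE 0.21, adjusted p = 0.52).

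CMM158C and CMN234C lost most in share. CMN234C (chromosome 14, 578489 to 579158, minus strand) had 5020, 4127 and 3484 CPM in the mutant, against 6045, 6025 and 7345 CPM in the wild type. Every mutant library was lower, yet the gene did not pass in edgeR (log2 fold change -0.67, SE 0.21, adjusted p = 0.13), while DESeq2 called it (adjusted p = 0.0014). CMM158C (chromosome 13, 368733 to 369860, minus strand) had 5065, 5045 and 3919 CPM in the mutant, against 6740, 7611 and 5837 CPM in the wild type. These groups were also apart (-0.58, SE 0.22, edgeR adjusted p = 0.20, DESeq2 adjusted p = 0.011). The difference in share of all counts was -0.226 points for CMN234C and -0.205 points for CMM158C.

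Of the remaining genes of the first 10, CMI290C kept its groups apart, and 5 overlapped. CMI290C (chromosome 9, 762886 to 763875) had 2811, 2733 and 2320 CPM in the mutant, against 3102, 3187 and 4044 CPM in the wild type (log2 fold change -0.45, SE 0.18, edgeR adjusted p = 0.24, DESeq2 adjusted p = 0.033). CMI050C, on the same chromosome (147075 to 148565), was nearly level, with 4775, 4589 and 4003 CPM in the mutant, against 4576, 5086 and 3767 CPM in the wild type. Its log2 fold change was -0.07 (SE 0.20, edgeR adjusted p = 0.91), the smallest of the first 10, and it was positive without mutant replicate 3 (0.033) or without wild-type replicate 2 (0.051). CMS429C averaged 4432 ± 297 CPM in the mutant and 5704 ± 1020 CPM in the wild type, CMQ142C 3808 ± 1075 and 4557 ± 426, CML063C 2721 ± 547 and 3524 ± 641, and CMI049C 2718 ± 154 and 3312 ± 484, each in that order (SD, n = 3 each). None of these 4 passed in edgeR, with adjusted p between 0.36 and 0.59.

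Per kilobase of coding length the order of the members changed. CMN234C led in the wild type, with 6284 CPM per kb in the mutant and 9659 CPM per kb in the wild type, and CMP166C followed with 7751 and 8884 CPM per kb, in that order. In the mutant CMP166C stood first and CMK296C second, with 6419 CPM per kb in the mutant and 5733 CPM per kb in the wild type, ahead of CMN234C. The groups of CMK296C overlapped (log2 fold change 0.11, SE 0.21, edgeR adjusted p = 0.85). CMM188C, the longest member (8160 bp), had the lowest level per length, with 153 CPM per kb in the mutant and 140.1 CPM per kb in the wild type. Ranking the interior genes per kb kept 67 of the 100 members, and the share of those 100 genes was 14.4% in the mutant and 17.1% in the wild type, a difference of -2.72 points.

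**Figure D4:**
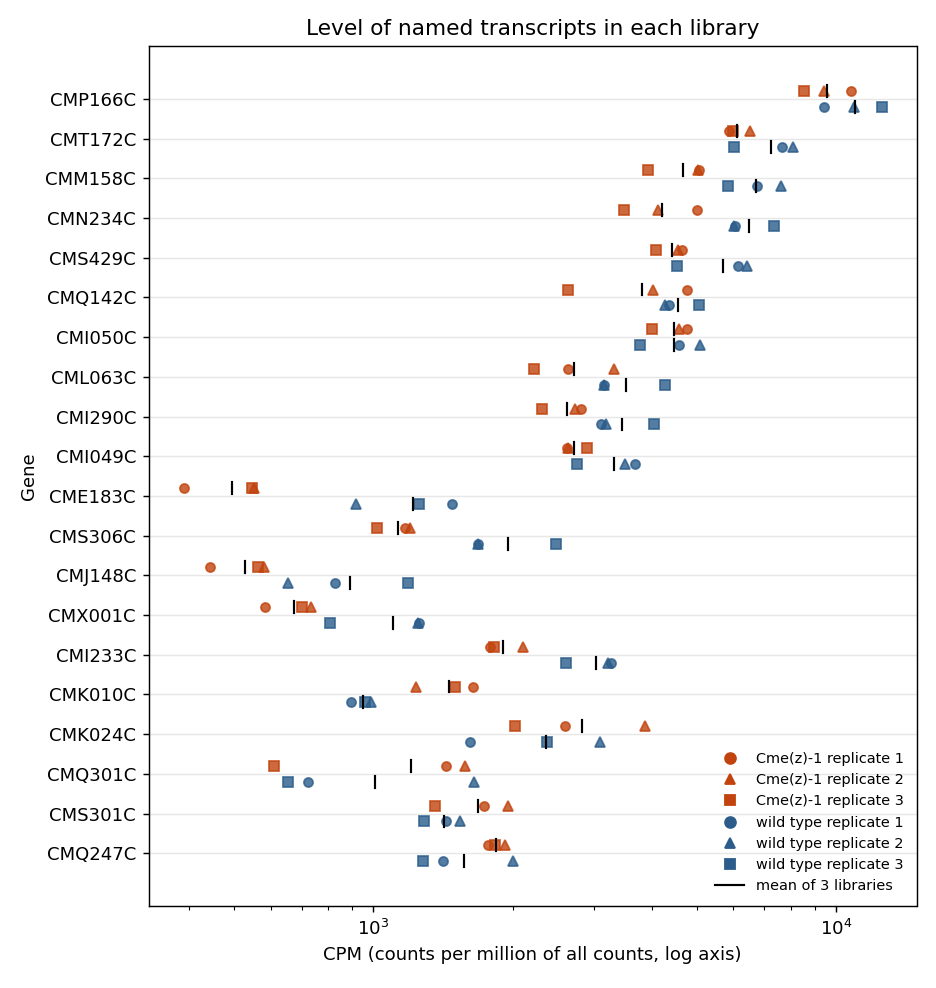
Level in CPM (horizontal, log axis) of 20 named members in each library, with Cme(z)-1 above wild type in each row, a marker for each replicate number and a black bar for the mean of 3 libraries. The first 10 rows are the most abundant members; CME183C and CMS306C passed the test, and CMQ301C spans about the same range in both groups.

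CME183C and CMS306C fell in the mutant. CME183C (chromosome 5, 480221 to 480746, minus strand, 526 bp, rank 64) had 389, 554 and 546 CPM in the mutant, against 1483, 917 and 1257 CPM in the wild type. The highest mutant library lay well below the lowest wild-type library, and the mutant mean was 40.7% of the wild-type mean (log2 fold change -1.35, SE 0.20, edgeR adjusted p = 0.0053). Its rank among interior genes was 245 by the mutant libraries. The call held in each of 16 other fits, with adjusted p between 1.6e-10 and 0.028. CMS306C (chromosome 19, 792338 to 792913, plus strand, 576 bp, rank 33) had 1170, 1199 and 1018 CPM in the mutant, against 1686, 1688 and 2487 CPM in the wild type. Wild-type replicate 3 was the highest of the 6 (-0.84, SE 0.19, adjusted p = 0.038). That call was lost in 8 of 16 other fits (adjusted p between 2.9e-05 and 0.13 over the 16), among them each of the 3 fits that leave out 1 mutant library (adjusted p = 0.13, 0.092 and 0.099 without mutant replicates 1, 2 and 3) and that without wild-type replicate 1 (0.073).

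The next lowest fold changes belonged to CMJ148C, CMX001C and CMI233C, none of which passed in edgeR, while DESeq2 called all 3 (adjusted p = 0.0014, 0.0016 and 2.6e-05 in that order). CMI233C (chromosome 9, 630482 to 631579, rank 13) had 1787, 2109 and 1824 CPM in the mutant, against 3272, 3210 and 2605 CPM in the wild type (log2 fold change -0.73, SE 0.18, adjusted p = 0.054). It was called without wild-type replicate 3, its lowest wild-type library (adjusted p = 0.020), and with libraries scaled by their totals alone (0.038). With any other single library left out, the edgeR adjusted p was between 0.096 and 0.22. CMX001C (chromosome 10, 304152 to 305465), annotated as a coding sequence that is not translated, had 585, 735 and 702 CPM in the mutant, against 1255, 1248 and 805 CPM in the wild type (-0.77, SE 0.20, adjusted p = 0.070). RefSeq lists a protein-coding gene, CMJ331C, over its whole length. CMX001C too was called without wild-type replicate 3 (0.0076), its lowest wild-type library. CMJ148C (chromosome 10, 420843 to 421196), the last member by rank, had 443, 581 and 564 CPM in the mutant, against 826, 656 and 1190 CPM in the wild type (-0.80, SE 0.21, adjusted p = 0.064). It was called without wild-type replicate 2 (0.026), its lowest wild-type library. Without wild-type replicate 3, its highest, the log2 fold change was -0.57 (edgeR adjusted p = 0.10). Only replicate 3 stood above 888 CPM, the wild-type mean of the first gene outside the members. The fold change thus leans on the value that admitted CMJ148C.

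Members with the largest positive values also missed the test. CMK010C (chromosome 11, 24881 to 26285, minus strand, rank 90), the closest of these to a chromosome end at 24880 bp, had 1639, 1240 and 1499 CPM in the mutant, against 897, 987 and 961 CPM in the wild type. All mutant libraries were higher, with a mean at 154% of the wild-type mean (log2 fold change 0.56, SE 0.15, edgeR adjusted p = 0.074). The gene was called by DESeq2 (adjusted p = 7.6e-04) and with scaling by library totals alone (0.037). CMS301C had a log2 fold change of 0.19 (SE 0.19, adjusted p = 0.68) and CMQ247C of 0.17 (SE 0.20, adjusted p = 0.74), both with overlapping groups. CMK024C had 2600, 3866 and 2022 CPM in the mutant, against 1620, 3097 and 2374 CPM in the wild type, a log2 fold change of 0.21 with SE 0.31 that was negative without mutant replicate 2 (-0.11) or without wild-type replicate 1 (-0.013). CMQ301C was the most variable member of both groups, with 1435, 1577 and 610 CPM in the mutant, against 723, 1648 and 655 CPM in the wild type. Its fold change of 0.20 had an SE of 0.44 and turned negative without mutant replicate 2 (-0.054) or without wild-type replicate 3 (-0.049). The coefficient of variation over 3 libraries was 43.3% in the mutant and 55.0% in the wild type for CMQ301C, where the median over the members was 10.1% in the mutant and 14.3% in the wild type.

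The edge of the ranking was shallow. Ranks 98 to 100 (CMM239C, CMP064C and CMJ148C) stood at 909, 908 and 891 CPM in the wild type, and the 3 genes that came next (CMD134C, CMG076C and CMR380C) at 888, 858 and 851 CPM. The mutant means of the first 3 were 864, 785 and 529 CPM, and of the last 3 they were 1169, 846 and 1038 CPM. The mutant's own top 100 shared 89 genes with the members. A gene leaves by ranking lower in the mutant and enters by ranking higher, so the signs in both sets follow largely from the ranking. Of the 11 that left, 7 had a wild-type rank of 80 or lower on the list. All of the 11 that left had a negative fold change, 1 of them called, and 1 of the 11 that entered was called higher. That gene, CMN310C (chromosome 14, 760552 to 762903, wild-type rank 304), had 996, 972 and 1441 CPM in the mutant, against 470, 429 and 421 CPM in the wild type (log2 fold change 1.30, SE 0.16, edgeR adjusted p = 0.0019).

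Coding length went with the fold change across members, and that relation rested on the replicate 3 libraries. The 33 shortest members (228 to 844 bp) had a median log2 fold change of -0.38, the 33 of middle length (882 to 1353 bp) of -0.30 and the 34 longest (1386 to 8160 bp) of -0.11. All mutant libraries lay below all wild-type libraries for 16, 10 and 4 members of these classes, and above them for 0, 1 and 3. Over all genes tested 7.36% lay below and 13.0% above. The 2 called members were among the shortest, where 1.83% of all genes were called lower. These counts include the replicate 3 libraries. Spearman's rho between coding length and fold change was 0.39 over the 100 members, a description of genes that share the same 6 libraries, and 0.099 over 4677 tested nuclear genes. Without both replicate 3 libraries the rho over the members was 0.033, and the medians of the 3 classes were -0.19, -0.28 and -0.16.

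Library by library, the short members set replicate 3 apart in both groups. Against the mean of a member over all libraries, the median deviation of the shortest members on the log2 scale was -0.042, -0.070 and -0.39 in mutant replicates 1 to 3, and 0.086, 0.11 and 0.35 in the wild type. For the longest members the values were 0.040, -0.033 and -0.051 in the mutant, and 0.042, 0.21 and -0.15 in the wild type. Members of middle length had -0.090, -0.040 and -0.20 in the mutant, and 0.17, 0.22 and -0.091 in the wild type. Mutant replicate 3 was thus low in short members and, less so, in those of middle length. Wild-type replicate 3 was high in short members and low in the middle and long ones. The difference between replicate 3 and the mean of replicates 1 and 2 had a rho with coding length of 0.57 in the mutant and -0.51 in the wild type (n = 100 members each). Without both replicate 3 libraries the members' share was 17.6% in the mutant and 19.7% in the wild type. Mutant replicate 3 was the lowest of the 6 libraries for 54 members, and wild-type replicate 2 the highest for 40.

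**Figure D5:**
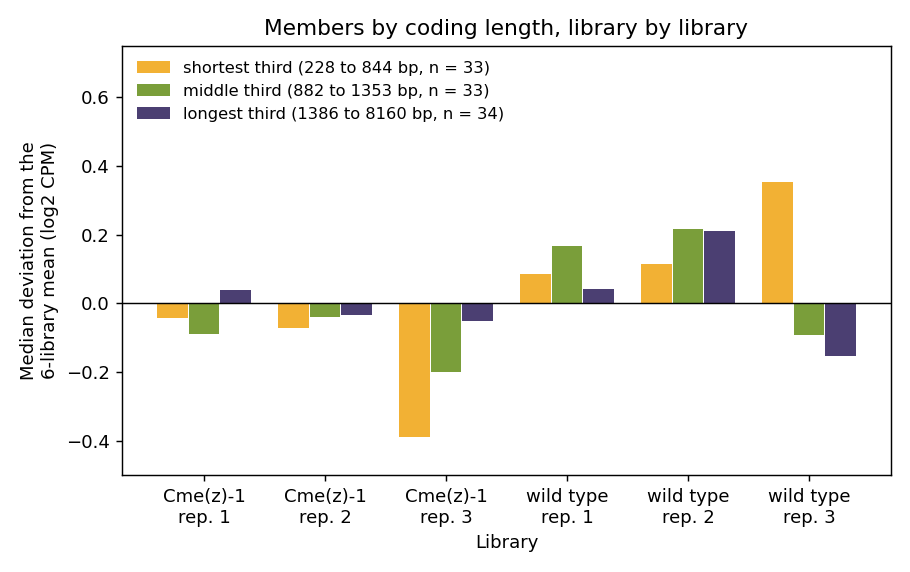
Median deviation of members from their mean over 6 libraries, in log2 CPM (vertical axis), for each Cme(z)-1 and wild-type library (horizontal axis) and for 3 classes of coding length with 33, 33 and 34 members. In the shortest class mutant replicate 3 stands at -0.39 and wild-type replicate 3 at 0.35, while the longest class stays between -0.15 and 0.21.

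In their place on the genome the members resembled other interior genes in most of what was measured. They lie on all 20 nuclear chromosomes and make up between 0.746% of the interior genes (chromosome 3, 1 member) and 4.10% (chromosome 6, 5 members). The median coding length was 1200 bp for the members and 1293 bp for the 4322 other interior genes, and 14.0% and 8.19% of them were shorter than 500 bp. The median distance to the nearest gene was 995 bp for members and 755 bp for the others, and that to a chromosome end 218417 and 221037 bp. A TE copy lay within 500 bp of 49.0% of the members and 45.3% of the others. TE copies overlapped 5 members, over at most 32.1% of their length, and 5.0% and 4.51% of the genes in these classes. Among members, the fold change showed little relation to the distance from a chromosome end (rho 0.11) or from a TE copy (rho -0.049, n = 100 for both).

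Of the members 10 stood next to another member, in 5 pairs chosen by position alone. In each pair the signs of the fold changes were the same. Since 81 of the 100 members had a negative fold change, members often share a sign whatever their position. The divergent pair CMN234C and CMN235C has 653 bp between its genes, and their coding lengths are 670 and 661 bp. CMN235C, which is annotated as not translated, had 1790, 1680 and 1375 CPM in the mutant, against 2009, 2100 and 2559 CPM in the wild type (log2 fold change -0.51, SE 0.18, edgeR adjusted p = 0.16). As in CMN234C, each mutant library was lower than each wild-type library. Reads of such a pair could be shared if the sequences are alike, and the sequences were not analysed here. CMI049C and CMI050C had log2 fold changes of -0.35 and -0.07, CML162C and CML163C of -0.11 and -0.13, CMN022C and CMN023C of -0.25 and -0.36, and CMQ295C and CMQ297C of 0.11 and 0.14, none of which passed in edgeR.

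The libraries are unstranded, per the labels, so reads of a member and of a transcript on its other strand cannot be told apart. RefSeq lists a non-coding transcript (misc_RNA) over part of 8 members, covering from 16.4% of CMR282C to 99.9% of CMJ042C. These transcripts have no row of their own in the count tables. CMI040C, overlapped over 65.8% of its length, had 1324, 1190 and 1316 CPM in the mutant, against 1729, 2089 and 1458 CPM in the wild type (log2 fold change -0.53, SE 0.18, edgeR adjusted p = 0.15), and was singled out after its values were seen. For these 8 genes the transcript behind the counts cannot be told apart.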

How the data were processed

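Raw whole-number read counts were deposited by the authors, 1 table per library, for 4984 genes and 5074 TE copies. The submitters' processing notes list Trim Galore and STAR and no version of either. How reads were counted, and whether those with several possible origins were kept, is not given in the sources used here. Gene coordinates follow build ASM9120v1, as the file headers state, and TE copies come from an annotation whose lines name EDTA. The end of a chromosome was position 1 or the largest end in both annotations. RefSeq's table of the same assembly matched 98 of 100 members by locus tag, 42 of them with the same start and end. Coordinates and lengths of members given here are those of the deposited annotation. The RefSeq table gave no symbol beyond the tag, so lists by gene product could not be applied.

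Groups and replicate numbers came from the sample titles. All rows were fitted together in edgeR 4.0.16 (R 4.3.3; filterByExpr with a minimum count of 10 and a minimum total of 15; TMM; glmQLFit and glmQLFTest), with Benjamini-Hochberg adjustment over the 7641 rows tested. The edgeR step was run on counts simulated from the means, library sizes and dispersions of these data. Such counts hold no pattern shared by genes within a library, so that run does not show how the step handles replicate 3. Standard errors were taken from the F statistic. CPM and shares use the plain library total. TMM factors (0.953 to 1.06) apply to fold changes only and lower their median over all genes by 0.06 on the log2 scale relative to plain totals (-0.03 against 0.03). The alternatives tried were DESeq2 1.42.0, limma 3.58.1 (voom), other scalings and filters, a replicate block, libraries left out, and other rules for the members.

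The members, lists and tests were chosen with earlier results of these data known. Genes were named by rule: the 10 most abundant members, the called members, the 5 largest fold changes each way, and the 3 genes on either side of the last rank. Others are named as chosen after their values were seen, or by position, namely CMN310C, CMN235C, CMM188C, CMK296C, CMI040C and the neighbouring and overlapped genes.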

Additional observations from a re-analysis of the deposited data

How the results depend on the processing

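The lower share of the members and their negative median fold change kept their sign under every alternative run. The difference in share was between -3.21 and -1.94 points with 1 library left out and -1.11 points for the 10 most abundant genes alone. The median log2 fold change was between -0.35 and -0.17 with 1 library left out and -0.15 for the top 200. Scalings moved the median of all genes by at most 0.06, and the members' median minus it was -0.24 in each; without mutant replicate 3 that difference was -0.13. The count of called members was less stable. The number called lower was 2, and 1 with TMM on nuclear genes, with genes only, with the replicate block, for genes ranked by the mutant libraries and for the top 50; 3 with library totals alone and for the top 200; 4 without a low-count filter and without both replicate 3 libraries; 22 with DESeq2; and between 1 and 5 with 1 library left out (5 and 4 when replicate 3 or replicate 2 of the wild type was left out, and 1 in each of the other 4 runs). The number called higher was 0, and 1 with DESeq2, with library totals alone and for genes ranked by the mutant libraries; it was 0 in each run with 1 library left out. Deviations of same-numbered libraries had correlations of 0.025, 0.14 and 0.26 for numbers 1, 2 and 3, too low for number 1 to treat equal numbers as pairs, although the replicate 3 libraries each correlated best with the other; the replicate block left CME183C called and 1 call in place of 2, and the differences in share within numbers 1, 2 and 3 were -1.43, -2.80 and -4.04 points (mean -2.76). Of 400 fold changes of 25 named genes under other fits, 6 changed sign, 8 lost their call and 16 gained one. With 1 library left out the log2 fold change ranged from -0.20 to 0.051 for CMI050C, from -0.11 to 0.47 for CMK024C and from -0.054 to 0.78 for CMQ301C, and these 3 genes hold all 6 changes of sign. Over the alternatives the share of all genes called lower was between 0.615% and 1.98%, DESeq2 aside (4.34%). The share called higher was between 0.717% and 1.77%, the latter with library totals alone, DESeq2 aside (2.36%). Causes of these changes were not tested. Products of the members, and so lists by function, were not analysed here.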
